A study of Homo sapiens with 7 samples.

Results

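The alpha protocadherin region of chromosome 5 holds the promoters of PCDHA1 to PCDHA13, PCDHAC1 and PCDHAC2 and, past the last shared exons, the enhancer HS5-1. Its loops were taken from 7 HiChIP loop lists as all those with at least 1 anchor midpoint between positions 140160000 and 140425000 of hg19 (GRCh37), with HS5-1 near 140420000. They numbered 131 of 135475 listed loops and joined 71 distinct pairs of anchor sites. In HiChIP, cut chromatin ends that neighbour each other in the nucleus are ligated, the ligated DNA is pulled down through a bound protein, and both ends are read. A count is taken as the number of read pairs supporting a loop.

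The cells were HEC-1-B, a human uterine adenocarcinoma line, and lines derived from it. Wild-type cells were measured with antibodies against CTCF, RAD21 and ZNF143, and cells with the ZNF143KO genotype were measured with those against CTCF and RAD21. In CTCF-AID cells CTCF is fused to a degron, and auxin (IAA) triggers its degradation; their 2 ZNF143 libraries were made at 0 h and 24 h of auxin treatment. Each group was 1 library, so no spread between replicates exists and no p-value is given. Whether the ZNF143KO and CTCF-AID lines are each 1 clone is not given in the sources used here. The lists do not show the removal of ZNF143 or CTCF, because no ZNF143 list from ZNF143KO cells and no CTCF list from auxin-treated cells was analysed here. The file layout of the CTCF and RAD21 lists differed between the genotypes, so an effect of list making and one of genotype cannot be told apart.

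Clustered protocadherins are cell-surface adhesion proteins, best known for giving neurons individual surface identities. Each alpha gene has its own promoter and first exon, which is spliced to exons shared by all alpha genes, so the choice of promoter sets which isoform a cell makes. HS5-1 is an enhancer of most alpha promoters. Its CTCF sites and those of the alpha promoters face each other, an arrangement in which cohesin, the ring complex that holds RAD21, can halt on both sides and form a loop. CTCF is the zinc-finger protein that stops cohesin at such sites. ZNF143 is a zinc-finger protein that binds mostly at promoters.

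The promoter sequences are shown to let the promoters compared below be read side by side. RefSeq windows (GRCh38.p14) of 300 bases, from 250 before to 50 after the gene start, were found for 13 of the 15 alpha genes. Most alpha promoters share an element known to hold a CTCF site. In these windows the letters GNTGTCNCT, chosen after the sequences were seen, occurred on the gene's own strand in 11 of 13 alpha promoters, starting 43 to 86 bases before the gene start, with a median of 60. PCDHAC1 and PCDHAC2 were the 2 without them. Of all 35116 windows, 2.41% held these letters on the gene's own strand and 4.41% on either strand. The element is in capitals in the windows of 4 genes that looped to HS5-1 in at least 4 lists, which lie on the plus strand at chr5:140827894-140827931, chr5:140841127-140841164, chr5:140855838-140855875 and chr5:140868880-140868917 (GRCh38.p14).
PCDHA6: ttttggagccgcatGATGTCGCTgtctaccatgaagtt
PCDHA8: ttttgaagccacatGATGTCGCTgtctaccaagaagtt
PCDHA10: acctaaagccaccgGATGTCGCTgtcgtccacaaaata
PCDHA11: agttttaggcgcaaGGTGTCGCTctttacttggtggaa
The whole window of PCDHA12, the promoter with the highest counts, is at chr5:140875058-140875357 on the plus strand (GRCh38.p14), again with the element in capitals.
PCDHA12: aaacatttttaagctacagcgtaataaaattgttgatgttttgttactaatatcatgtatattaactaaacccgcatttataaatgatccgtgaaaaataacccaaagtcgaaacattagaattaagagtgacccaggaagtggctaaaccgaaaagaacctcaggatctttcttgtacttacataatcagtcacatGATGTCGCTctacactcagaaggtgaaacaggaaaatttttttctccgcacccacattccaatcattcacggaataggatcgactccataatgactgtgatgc
PCDHAC1, the promoter found in all 7 lists, and PCDHAC2, found in none, are at chr5:140926049-140926348 and chr5:140966226-140966525 on the plus strand (GRCh38.p14). Capitals mark CGCT, known as the core of the alpha element, on the gene's own strand, where each window holds it 3 times.
PCDHAC1: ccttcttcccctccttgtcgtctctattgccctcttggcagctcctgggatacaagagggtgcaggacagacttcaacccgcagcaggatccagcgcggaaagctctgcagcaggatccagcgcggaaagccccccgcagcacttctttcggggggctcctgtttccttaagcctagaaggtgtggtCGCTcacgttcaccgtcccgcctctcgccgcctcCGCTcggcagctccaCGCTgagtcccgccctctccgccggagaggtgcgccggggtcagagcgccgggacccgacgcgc
PCDHAC2: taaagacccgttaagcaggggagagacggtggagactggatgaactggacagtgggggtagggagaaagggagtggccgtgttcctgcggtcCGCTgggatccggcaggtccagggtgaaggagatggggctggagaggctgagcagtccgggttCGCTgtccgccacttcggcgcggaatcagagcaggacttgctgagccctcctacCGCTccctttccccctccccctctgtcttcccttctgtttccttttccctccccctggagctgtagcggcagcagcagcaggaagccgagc
CGCT is short, and 54.3% of all windows held it on the gene's own strand and 70.01% on either strand. Base composition separated the same genes, with 33.7% to 40.3% G and C in the 11 windows from PCDHA1 to PCDHA12, 66.0% in PCDHAC1 and 63.0% in PCDHAC2, against a median of 58.7% over all windows. Neither a strict core of the CTCF motif nor a core of the ZNF143 motif was found on either strand in the 13 alpha windows (0 of 13), while 10.6% and 1.89% of all windows held them. Such matches describe letters and not protein binding.

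The deposited lists carry no gene names and no annotation of hg19 was used. Anchors were therefore named from the distances between gene starts in RefSeq. Of 14 anchor sites inside the region, 12 held a gene start when the spacing of the 15 alpha starts was laid over them, against at most 8 at any other offset. The other 2 sites were HS5-1 and an unnamed site at -8.09 kb relative to it. At the same offset, 10 anchor sites in the beta and gamma clusters held a protocadherin start. The alpha genes without an anchor were PCDHA3, PCDHA5 and PCDHAC2. Alpha genes are close copies of each other, so reads could be shared between them, and how the authors treated such reads is not given in the sources used here.

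The 7 lists differed widely in how much of this region they held. The CTCF list of wild-type cells held 34 of these loops with a summed count of 415 (exact Poisson 95% interval 376 to 457), and the RAD21 list of wild-type cells held 24 loops with a summed count of 528 (484 to 575). The ZNF143 list of wild-type cells held 4 loops with a summed count of 10 (4.795 to 18.4). In ZNF143KO cells there were 15 CTCF loops (summed count 88, 70.6 to 108) and 16 RAD21 loops (130, 109 to 154). In CTCF-AID cells the ZNF143 list held 28 loops (98, 79.6 to 119) at 0 h and 10 loops (29, 19.4 to 41.6) at 24 h. Intervals cover counting error only, since read pairs copied from 1 molecule are not independent. The summed counts of whole lists ran from 33460 to 143119 and are not library depths, which are unknown. No loop with fewer than 2 counts is listed, and in none of the 7 lists do the anchor midpoints of a loop lie less than 20 kb apart (0 loops). A loop called unlisted here can therefore have fewer counts, no called anchor, or a span below 20 kb, and other filters of the authors are not given in the sources used here. Promoters closer together than this cannot appear joined. In both CTCF-AID lists most counts are even (10.5% and 13.2% odd, against 25.4% to 31.9% in the other 5), so their scale may differ from the rest.

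**Figure D1:**
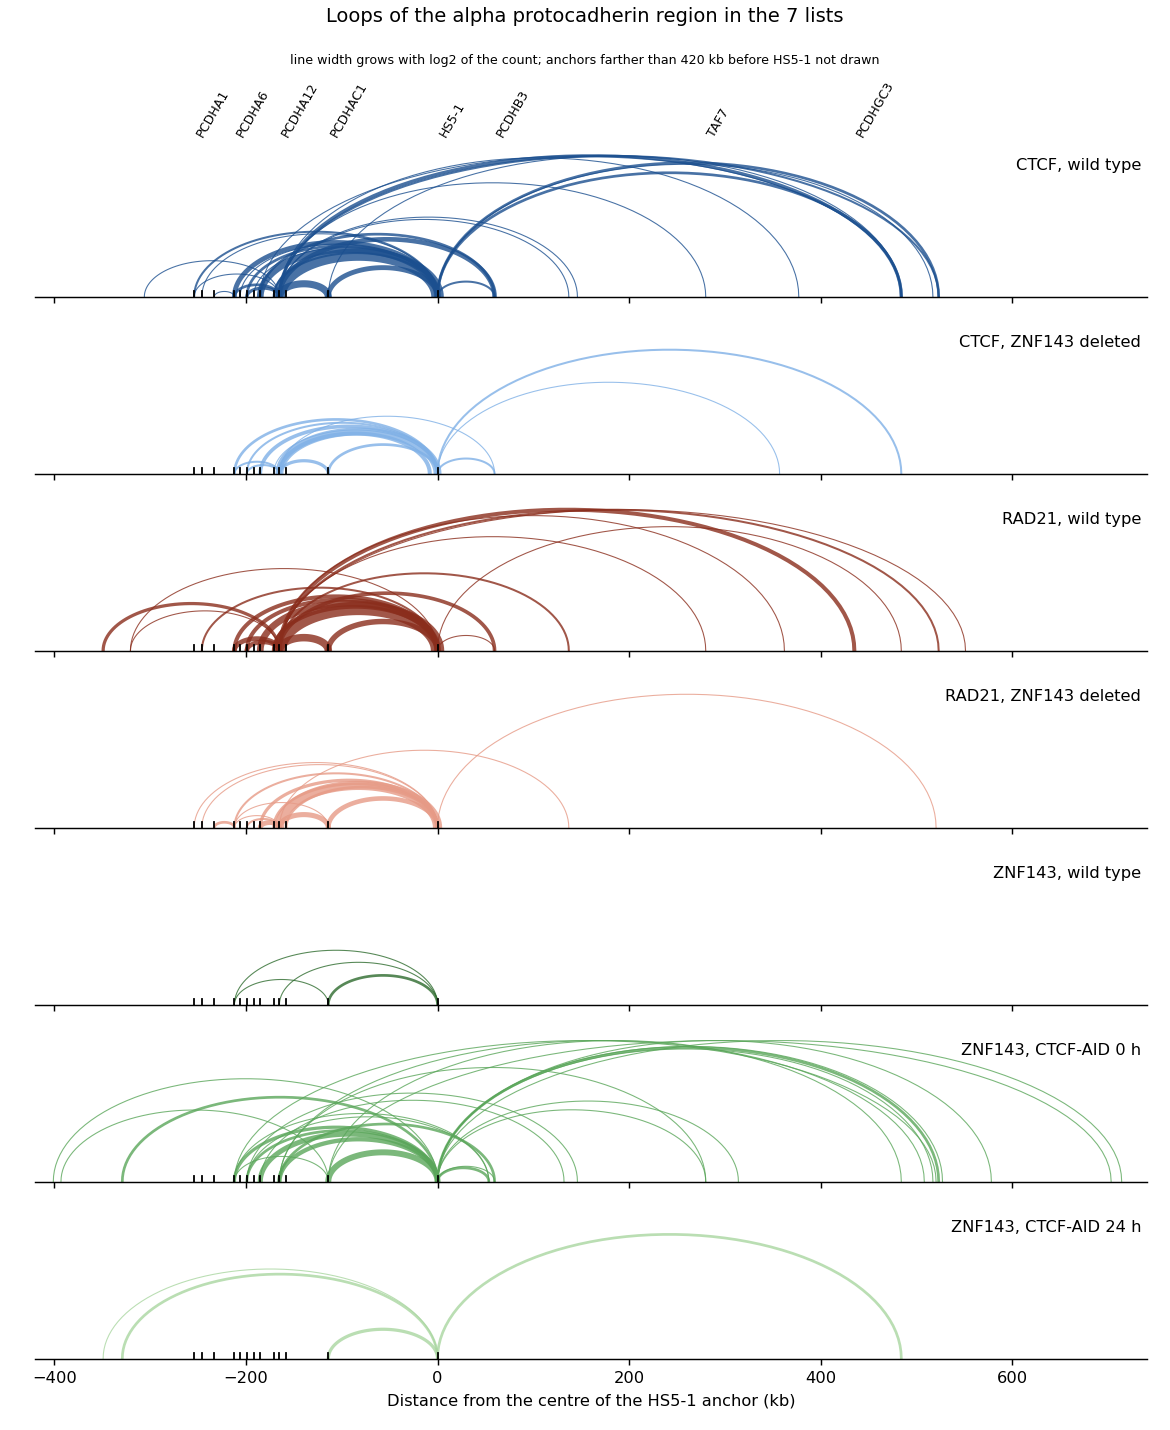
Loops of the alpha region in each of the 7 lists, as arcs between anchor sites placed by distance in kb from the centre of the HS5-1 anchor; black ticks are the alpha promoter anchors and HS5-1. Line width grows with the log2 of the count, arc height follows span up to a ceiling, and loops to anchors more than 420 kb before HS5-1 are left out. The bundle between PCDHA12 and HS5-1 is the widest with the CTCF and RAD21 antibodies, and at 24 h of auxin the only alpha promoter arc drawn is that of PCDHAC1.

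In wild-type cells PCDHA12 and HS5-1 formed 1 of the strongest loops listed anywhere. Of the CTCF anchors, that of PCDHA12 lay at 140254134 to 140256182 of hg19 and that of HS5-1 at 140418923 to 140421630, with centres 165 kb apart. This loop had a count of 261 (230.3 to 295) with CTCF and 378 (341 to 418) with RAD21, which ranked 2 among 19313 CTCF loops and 2 among 16788 RAD21 loops. Among loops spanning 100 to 200 kb it was the highest in both lists, where the median count was 3. With ZNF143 the same loop had a count of 2 in wild-type cells, the lowest that is listed.

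The other alpha promoters reached HS5-1 with far lower counts. PCDHA10 was next, with 22 counts for CTCF and 22 for RAD21. PCDHAC1, the promoter nearest to HS5-1 among those with an anchor, had 10 and 13 counts over a span of 114 kb. PCDHA6 had 10 and 7 counts over 212 kb, and PCDHA8 had 4 and 7 over 199 kb. PCDHA11, the anchor just before PCDHA12 at a span of 171 kb, had 3 and 6 counts. The order of the counts did not follow the span. PCDHA1 (3), PCDHA2 (2), PCDHA7 (2) and PCDHA9 (2) were listed for CTCF, and of these only PCDHA2 was listed for RAD21, with a count of 3. PCDHA13, at 158 kb the promoter between PCDHA12 and PCDHAC1, was in neither list.

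Promoter choice was described as the share of all promoter to HS5-1 counts that each promoter took. PCDHA12 took 81.8% of 319 CTCF counts in wild-type cells (exact binomial 95% interval 77.1 to 85.9) and 86.7% of 436 RAD21 counts (83.1 to 89.7). PCDHA10 took 6.897% (4.37 to 10.3) and 5.05% (3.19 to 7.54). PCDHAC1 took 3.13% (1.51 to 5.69) and 2.98% (1.597 to 5.04), and PCDHA6 took 3.13% (1.51 to 5.69) and 1.61% (0.648 to 3.28). The intervals of PCDHA12 lay far from those of every other promoter, while those of PCDHA6 and PCDHAC1 overlapped with each antibody.

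**Figure D2:**
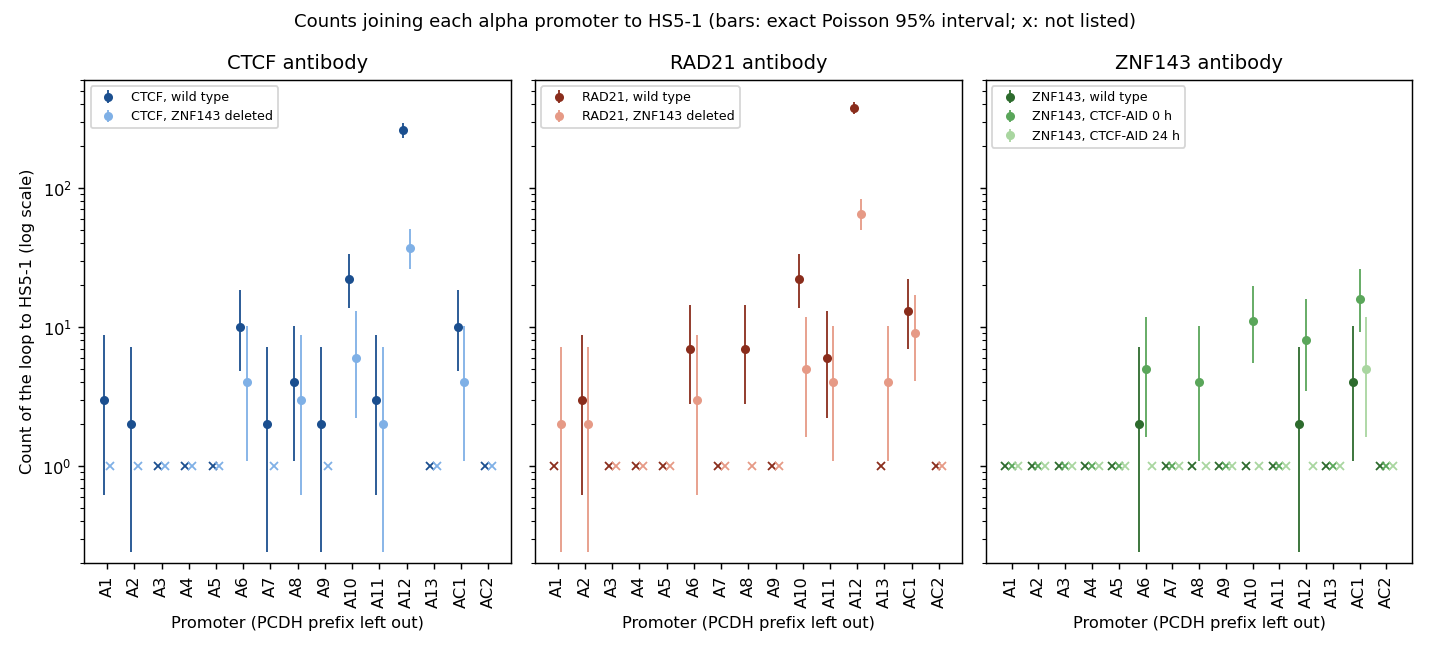
Counts of the loop from each of the 15 alpha promoters to HS5-1, on a log axis, in 3 panels by antibody; bars are exact Poisson 95% intervals and crosses, drawn at 1 for display only, mark promoters whose loop is not listed. PCDHA12 stands above all others for CTCF and RAD21, at 261 and 378 counts in wild-type cells, while PCDHAC1 has the highest count in each of the 3 ZNF143 lists.

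Alpha promoters were also joined to each other, mostly by way of PCDHA12. PCDHA12 was linked to PCDHAC1, over 51.4 kb, by 26 counts for CTCF and 31 for RAD21, which made this the next strongest loop of the region after PCDHA12 to HS5-1 in both lists. PCDHA8 was linked to PCDHA12 by 5 and 9 counts and PCDHA6 to PCDHA12 by 4 and 10. The remaining promoter pairs of the CTCF list were PCDHA1 with PCDHA12 and PCDHA4 with PCDHA6, at 2 counts each. PCDHA12 took part in 14 loops in each of the 2 lists and HS5-1 in 17 CTCF and 10 RAD21 loops, whereas the median anchor of either list had 1.

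Links out of the region were weak in comparison. With CTCF, 15 loops of 34 lay wholly inside and held 86.3% of the summed count, and with RAD21, 10 of 24 held 92.05%. The strongest outside partners of PCDHA12 were the PCDHB3 anchor of the beta cluster (9 counts for CTCF, 6 for RAD21), PCDHGC3 of the gamma cluster (7 counts, RAD21 list only) and an anchor around the start of HARS1, a histidyl-tRNA synthetase gene before the cluster (5 counts, RAD21 list only). An unnamed anchor beyond the gamma cluster, at 140903386 to 140905469, also had 5 counts with PCDHA12, in the CTCF list only. The loops shared with the beta and gamma clusters had summed counts of 20 and 2 with CTCF and 11 and 9 with RAD21. Of the 34 CTCF and 24 RAD21 loops in wild-type cells, 16 joined the same pair of sites, which is 47.1% of the CTCF and 66.7% of the RAD21 loops. Over the whole lists 41.5% of CTCF loops were found among the RAD21 loops and 47.8% of RAD21 loops among the CTCF loops, without extension. The loops in only 1 of the lists had at most 5 counts for CTCF and 7 for RAD21.

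ZNF143 was measured in wild-type cells with a different outcome. Its 4 loops joined PCDHAC1 to HS5-1 (4 counts), PCDHA12 to HS5-1 (2), PCDHA6 to HS5-1 (2) and PCDHA6 to PCDHAC1 (2). The first 3 are also CTCF and RAD21 loops, while PCDHA6 to PCDHAC1 was in neither wild-type list. PCDHAC1 thus had the highest count, but its share of the 8 promoter to HS5-1 counts, 50.0% (15.7 to 84.3), overlapped that of PCDHA12, 25.0% (3.19 to 65.1). The region held 0.0203% of all ZNF143 counts in wild-type cells, against 0.514% of the CTCF and 0.7096% of the RAD21 counts.

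ZNF143KO and wild-type cells were compared next, with each antibody. Sums over a list move with how many loops it holds, so ratios of sums were taken over loops that join the same sites in both lists. The 12 such CTCF loops of the region had 361 counts in wild-type and 75 in ZNF143KO cells, a ratio of 0.208 (exact 95% interval 0.1598 to 0.267), and the 10 RAD21 loops had 482 and 106, a ratio of 0.2199 (0.176 to 0.272). Over all loops found in both lists the ratios were 0.567 and 0.508, and over the summed counts of the whole lists 0.573 and 0.4497. PCDHA12 to HS5-1 holds most of the region's counts, and without it the ratios of all listed counts went from 0.212 to 0.331 with CTCF and from 0.246 to 0.433 with RAD21. PCDHA12 to HS5-1 went from 261 to 37 counts (26.1 to 51.00) with CTCF and from 378 to 65 (50.2 to 82.8) with RAD21. The ratios were 0.142 (0.0976 to 0.201) and 0.172 (0.1301 to 0.224). The loop was still the strongest of the region, and in ZNF143KO cells it ranked 9 among 15597 CTCF loops and 3 among 10804 RAD21 loops. The 2 values had no replicate, and the anchor of PCDHA12 was called wider in ZNF143KO cells, at 2699 bp against 2049 bp for CTCF and at 2049 bp against 1706 bp for RAD21.

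Loops picked for many wild-type counts had lower ratios than the whole lists, so the PCDHA12 loop was set beside loops of 20 or more wild-type counts. Their median ratio was 0.286 over 331 CTCF loops and 0.256 over 379 RAD21 loops. A lower ratio than that of PCDHA12 to HS5-1 was found for 40 of the CTCF loops (12.1%) and 98 of the RAD21 loops (25.9%). Among the 12 CTCF and 14 RAD21 loops with at least 100 wild-type counts it had the lowest ratio in both lists, with medians of 0.228 and 0.237. The lower quartiles of these ratios were 0.173 and 0.223. They lay inside the intervals of the PCDHA12 loop (0.0976 to 0.201 and 0.1301 to 0.224), so its rank can shift within counting error.

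**Figure D3:**
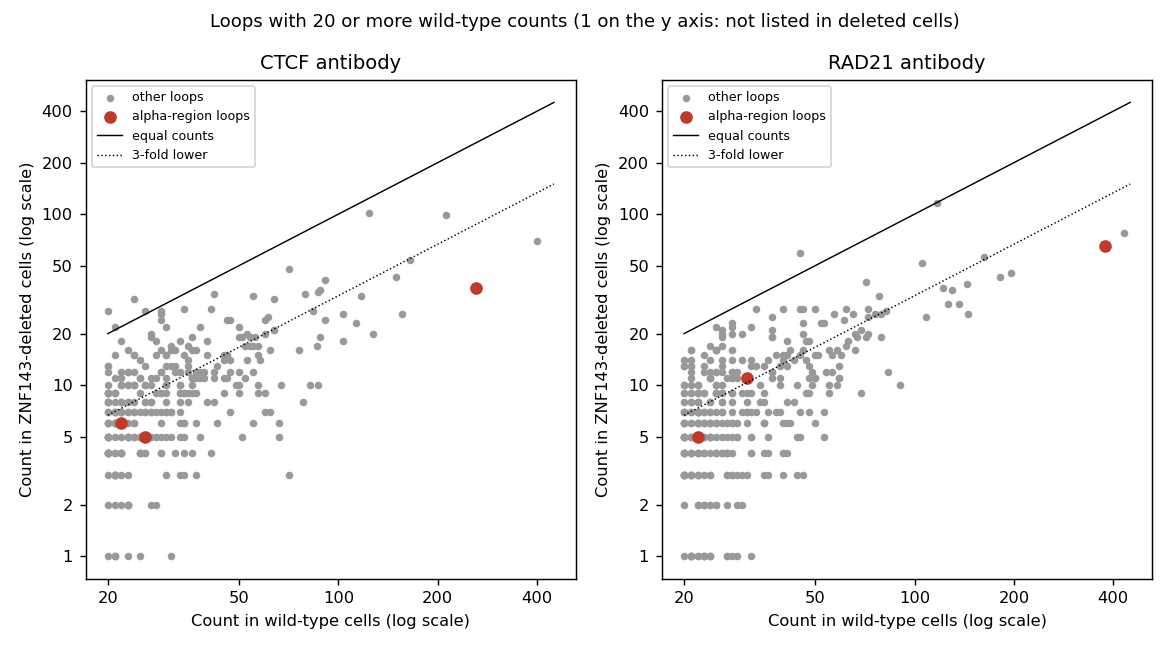
Counts in ZNF143KO against wild-type cells, on log axes, for the 331 CTCF and 379 RAD21 loops with 20 or more wild-type counts; red points are the 3 alpha-region loops of each panel and points at 1 are not listed in ZNF143KO cells. The rightmost red points are PCDHA12 to HS5-1, at 261 and 37 counts for CTCF and 378 and 65 for RAD21, below the dotted line of a 3-fold lower count.

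The other promoters together had a higher ratio than PCDHA12 with each antibody. With CTCF, 9 of them were listed in wild-type and 5 in ZNF143KO cells, and the 5 listed in both had 49 and 19 counts, a ratio of 0.388 (0.216 to 0.671). With RAD21, 6 and 7 were listed, and the 5 in both had 51 and 23 counts, a ratio of 0.451 (0.263 to 0.751). Both intervals lay above that of PCDHA12. A loop of few wild-type counts stays in this set only if it keeps at least 2 counts in ZNF143KO cells. The choice of loops thus favours high ratios for the weaker promoters. Over all listed promoters other than PCDHA12 the sums were 58 and 19 with CTCF, a ratio of 0.328 (0.184 to 0.558) whose interval overlaps that of PCDHA12, and 58 and 29 with RAD21, a ratio of 0.500 (0.309 to 0.794) whose interval does not. The share of PCDHA12 went to 66.1% (52.2 to 78.2) with CTCF, a change of -15.7 percentage points (Newcombe interval -29.4 to -3.81), and to 69.1% (58.8 to 78.3) with RAD21, a change of -17.5 points (-27.9 to -8.42). Over the 6 promoters listed in both genotypes the changes were -18.1 points (-31.7 to -6.24) and -14.2 points (-24.7 to -5.51). This set is limited in the same way, so the choice of loops favours a lower share of PCDHA12.

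PCDHA10, the next strongest promoter, went from 22 to 6 counts with CTCF (ratio 0.273, 0.0905 to 0.694) and from 22 to 5 with RAD21 (0.227, 0.0672 to 0.615). Both intervals overlap that of PCDHA12 with the same antibody. PCDHAC1 went from 10 to 4 with CTCF (0.400, 0.0916 to 1.39) and from 13 to 9 with RAD21 (0.692, 0.261 to 1.75), and both intervals include equal counts. Its share of the RAD21 counts was 9.57% (4.47 to 17.4) in ZNF143KO cells, 6.59 points (1.69 to 14.3) above that in wild-type cells. With CTCF its share differed by 4.01 points (-1.01 to 13.9), an interval that includes 0. PCDHA6 went from 10 to 4 and from 7 to 3 counts. PCDHA8 went from 4 to 3 with CTCF, and with RAD21 its 7 counts had no listed loop in ZNF143KO cells. PCDHA11 went from 3 to 2 and from 6 to 4.

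Promoter to promoter loops numbered 5 in wild-type and 3 in ZNF143KO cells with CTCF, and the 3 in both had 35 and 11 counts, a ratio of 0.314 (0.144 to 0.633). With RAD21 they numbered 3 and 6, and the 3 in both had 50 and 16 counts, a ratio of 0.320 (0.1701 to 0.571). Over all listed promoter pairs the RAD21 sums were 50 and 32, a ratio of 0.640 (0.397 to 1.02) whose interval includes equal counts. Without PCDHA10 to PCDHA12 they were 50 and 22 (0.440, 0.254 to 0.7401). All listed pairs of the CTCF lists had 39 and 11 counts (0.282, 0.1303 to 0.562). PCDHA12 to PCDHAC1 went from 26 to 5 (0.192, 0.0577 to 0.509) with CTCF and from 31 to 11 (0.355, 0.161 to 0.725) with RAD21. PCDHA10 to PCDHA12 had a RAD21 count of 10 in ZNF143KO cells and was unlisted elsewhere. The midpoints of its anchors lay 20.1 kb apart in that list, where the PCDHA12 anchor was called wider than in wild-type cells, and 19.9 kb apart in the RAD21 list of wild-type cells, under the shortest span listed. With the anchors of the 3 other lists that hold both promoters they lay 19.1 to 19.7 kb apart. A change with genotype and the shortest listed span cannot be told apart for this loop.

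Of the 34 CTCF loops, 14 were found again in ZNF143KO cells when the anchors sought were extended by 5 kb (41.2%, exact interval 24.6 to 59.3), against 39.1% of all CTCF loops. For RAD21 10 of 24 were found (41.7%, 22.1 to 63.4), against 34.1% of all. In the reverse search 12 of the 15 CTCF loops and 10 of the 16 RAD21 loops of ZNF143KO cells were found in wild-type cells, against 47.1% and 50.9% of all loops. The shares of wild-type loops found again are near those of the whole lists. The extension can match a promoter to its neighbour, and 12 CTCF loops joined the same pair of sites again, against 33.6% of all loops without extension. Without extension 10 RAD21 loops were found, against 29.7% of all. Where a loop joined the same sites, the count was lower in ZNF143KO cells for 11 of 12 CTCF and 10 of 10 RAD21 loops, and HS5-1 to PCDHB3 had 3 CTCF counts in both. Over all loops found in both lists without extension, the count was lower for 57.0% with CTCF and 62.4% with RAD21. The region's loops had higher wild-type counts than the lists on average (12.2 against 4.18 per loop with CTCF and 22.0 against 4.43 with RAD21), and a loop at the lowest listed count cannot be lower in the other list.

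A loop of 6 or more wild-type counts was at least 3-fold lower or unlisted in ZNF143KO cells in 4 of 6 cases with CTCF, against 58.3% of such loops in the whole list, and in 7 of 11 cases with RAD21, against 63.5%. These counts are close to the background of each list. In the other direction, 1 of 3 CTCF loops with 6 or more counts in ZNF143KO cells was unlisted in wild-type cells (15.5% of all such loops), as was 1 of 4 RAD21 loops (11.4%). The former joined PCDHA12 to the unnamed site at -8.09 kb from HS5-1 (140411306 to 140413075), with a count of 7, and this site was an anchor in no other list. The latter was PCDHA10 to PCDHA12, whose anchors lay under 20 kb apart in the wild-type list.

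Loops leaving the region numbered 19 in wild-type and 5 in ZNF143KO cells with CTCF and 14 and 2 with RAD21. Most had 2 to 5 counts, near the lowest listed, and 3 CTCF loops and 1 RAD21 loop joined the same sites in both, so no ratio of their sums is given. With RAD21 the 2 in ZNF143KO cells joined PCDHA12 to PCDHB8, listed in wild-type cells too, and HS5-1 to an anchor past the gamma cluster, unlisted there, at 2 counts each. The RAD21 loops from PCDHA12 to PCDHGC3 (7 counts), PCDHB3 (6) and HARS1 (5) in wild-type cells were unlisted in ZNF143KO cells. With CTCF, PCDHA12 to PCDHB3 went from 9 to 2 counts, and HS5-1 kept its link to an anchor 484 kb past it at 4 and 3 counts. PCDHA13 appeared with 4 RAD21 counts to HS5-1 in ZNF143KO cells alone.

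CTCF-AID cells without auxin gave the fullest ZNF143 view of the region. PCDHAC1 to HS5-1 had 16 counts (9.15 to 25.98), PCDHA10 11, PCDHA12 8, PCDHA6 5 and PCDHA8 4. PCDHAC1 took 36.4% (22.4 to 52.2) of these 44 counts, PCDHA10 25.0% (13.2 to 40.3) and PCDHA12 18.2% (8.19 to 32.7), and these 3 intervals overlap. The PCDHA12 share was thus far below the 81.8% and 86.7% of the CTCF and RAD21 lists of wild-type cells. The PCDHA12 anchor was also narrower in the ZNF143 lists, at 1247 bp, than in the CTCF and RAD21 lists, at 2049 and 1706 bp, and the part of this in the lower count was not tested.

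All 4 wild-type ZNF143 loops were found in CTCF-AID cells at 0 h (4 of 4, against 59.6% of all loops of that list, 52.7% without extension). The 0 h list held 24 more loops. The 4 loops in both had 10 counts in wild-type cells and 31 at 0 h, a ratio of 3.10 (1.48 to 7.09), against 1.52 over all loops found in both lists and 2.900 over the summed counts of the whole lists. Of the 28 loops at 0 h 4 were found in wild-type cells, against 19.4% of all. The 3 loops with 6 or more counts at 0 h, from PCDHAC1, PCDHA10 and PCDHA12 to HS5-1, were all at least 3-fold lower or unlisted in wild-type cells, against 60.5% of such loops. This pair differs in line and library without removal of a protein. HS5-1 had 16 loops at 0 h, of which 11 left the region, and PCDHA12, PCDHA6, PCDHA8 and PCDHA10 each had at least 1 link to the beta cluster, with 2 to 4 counts.

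After 24 h of auxin PCDHAC1 was the only alpha promoter left in the ZNF143 loops of the region. PCDHAC1 to HS5-1 remained, with 5 counts (1.62 to 11.7) against 16, a ratio of 0.312 (0.0895 to 0.893). PCDHA6, PCDHA8, PCDHA10 and PCDHA12, with 5, 4, 11 and 8 counts to HS5-1 at 0 h, were anchors of no loop in the region at 24 h. Over all loops found at both times the ratio was 1.31, and over the summed counts of the whole lists it was 0.719. The number of promoters listed with HS5-1 was 5 at 0 h and 1 at 24 h. Anchors were fewer over the whole lists too, with 21128 distinct anchors at 0 h and 9324 at 24 h. Of the 5 promoters at 0 h, PCDHAC1 is the only one without GNTGTCNCT in its window, letters chosen after the sequences were seen. A link between these letters and the loops listed at 24 h was not tested.

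**Figure D4:**
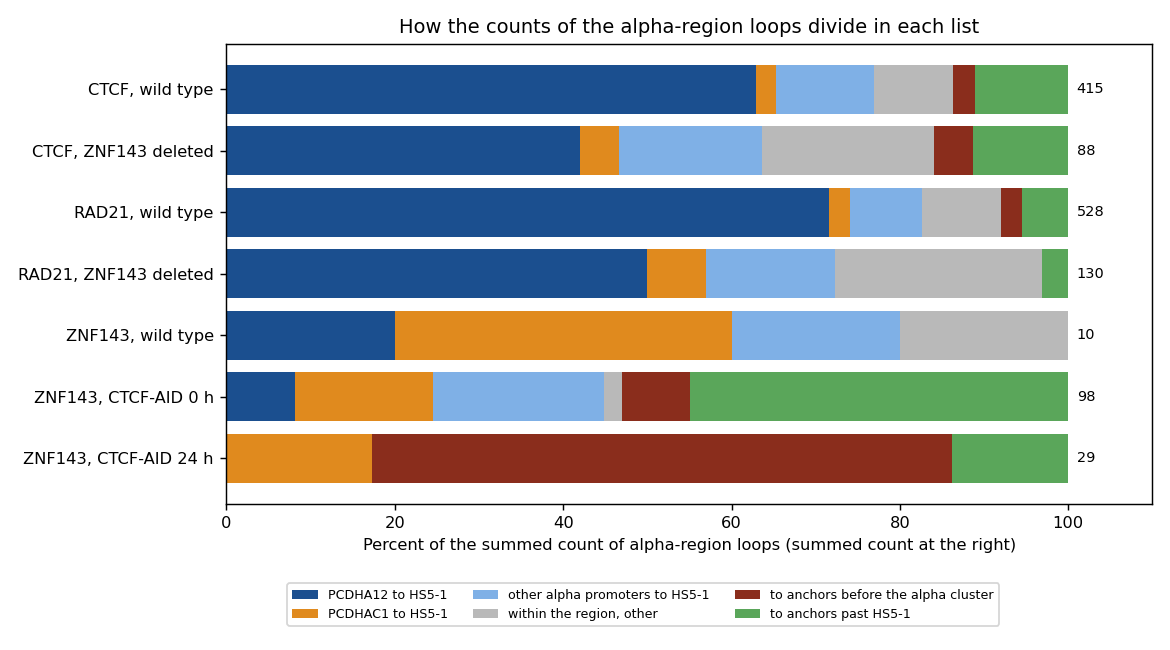
Percent of the summed count of alpha-region loops in each list by kind of loop, with the summed count at the right of each bar. PCDHA12 to HS5-1 is the largest part in the 4 CTCF and RAD21 lists, while at 24 h of auxin 20 of 29 counts belong to loops to anchors before the alpha cluster.

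HS5-1 itself stayed an anchor with 9 loops at 24 h. Its loops leaving the region numbered 11 at 0 h (28 counts) and 8 at 24 h (22 counts), and only 1 of them joined the same sites at both times. Their direction differed. At 0 h 2 of them (6 counts) ran to anchors before the alpha cluster and 9 ran past HS5-1 to the beta cluster, TAF7 (a subunit gene of the general transcription factor TFIID), the gamma cluster or beyond. At 24 h 7 (18 counts) ran before the cluster and 1 (4 counts) beyond the gamma cluster. The anchors before the cluster lay 329 to 1791 kb from HS5-1 and had 2 to 4 counts each, and the nearest of them, at 140090185 to 140092030, had 4 counts at both times. No loop to the beta or gamma cluster was listed at 24 h (0 loops, against 7 and 1 at 0 h).

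The HS5-1 anchor was called from 140419965 at 24 h and from 140418923 in the 6 other lists, with the same end, so that it was 1666 bp wide in place of 2708 bp. Of the 28 loops at 0 h, 2 were found at 24 h (7.14%, 0.877 to 23.5), against 24.7% of all loops and 20.3% without extension. All 3 loops with 6 or more counts at 0 h were at least 3-fold lower or unlisted at 24 h, against 53.0% of such loops in the whole list. In the other direction 2 of the 10 loops at 24 h were found at 0 h, against 45.4% of all. PCDHA12 to HS5-1 in wild-type CTCF and RAD21 lists and PCDHAC1 to HS5-1 in the ZNF143 lists were thus the leading loops of the region, and PCDHAC1 to HS5-1 was the only pair of the 71 listed in all 7.

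PCDHAC2, the alpha gene closest to the shared exons, was not joined to HS5-1 or to any other site. No anchor within 5 kb of its matched start was found in any of the 7 lists (0 of 7). PCDHA3 and PCDHA5 had no anchor in these loops either. PCDHAC1 to HS5-1, by contrast, had counts of 10 and 4 with CTCF and 13 and 9 with RAD21 in wild-type and ZNF143KO cells, and with ZNF143 4 in wild-type cells, 16 at 0 h and 5 at 24 h. The PCDHAC1 anchor was 1518 bp wide in all 7 lists, while the HS5-1 anchor of this loop was narrower at 24 h, and its part in the lower count there was not tested. Of the 71 pairs of sites, 47 were in 1 list only.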

How the data were processed

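For each library the authors deposited a list of loops, in which a pair of anchors has a whole-number count of at least 2, not scaled to depth. Per the submitters' processing notes, HiC-Pro and hg19 were used. The loop caller, filters and pooling are not given in the sources used here.

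Loops were selected by anchor midpoint. Overlapping anchors of the 7 lists were merged into sites. Sites were named where the spacing of RefSeq gene starts (GRCh38.p14), moved in steps of 50 bp, placed a start on them; the best offsets spanned 1000 bp, and no converted coordinate is printed. This assumes equal spacing in both builds. Outside the clusters the names are less sure. A loop was found in another list when its anchors, extended by 5 kb, overlapped that loop's anchors by 1 bp or more. Intervals are 95% exact Poisson for counts, exact binomial for shares and for ratios (from the split of 2 counts), and Newcombe for differences. The script was tested on simulated lists (Python 3.11.15, NumPy 2.4.6, SciPy 1.17.1, Matplotlib 3.10.9).

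Named were the 4 genes of the rule, every other alpha gene with an anchor, HS5-1, the 3 loops of highest count per list and loops that changed at least 3-fold or had 6 or more counts in 1 list of a pair. Members, lists and comparisons were chosen with earlier results of these data known. Alternatives were the region by both anchors, a minimum count of 3, other windows and extensions, scaling by list totals, and, added after the data were seen, leaving out PCDHA12 to HS5-1 or PCDHA10 to PCDHA12, dividing CTCF-AID counts by 2, and taking ratios over loops in both lists or with unlisted loops at 1 count.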

Additional observations from a re-analysis of the deposited data

Results flagged for a closer look

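The loops of 2 pairs of sites moved in opposite directions with ZNF143 deletion in the CTCF and the RAD21 lists, and the difference was not tested. PCDHA1 to HS5-1 was listed for CTCF at 3 counts in wild-type cells alone, while with RAD21 it was unlisted in wild-type cells and had 2 counts in ZNF143KO cells. PCDHA4 to PCDHA6 had a CTCF count of 2 in wild-type cells alone and a RAD21 count of 4 in ZNF143KO cells alone. All these counts are at or near the lowest listed.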

How the results depend on the processing

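Of 122 combinations of a result and an alternative, 85 stayed within 1.5 times the reported number or within its interval, and 37 moved. No ratio changed direction. The other results are numbers of loops, summed counts and shares, which have no direction that could change. With both anchors inside the region the loops numbered 15 (CTCF, wild type), 10 (RAD21, wild type), 6 (CTCF-AID 0 h) and 1 (24 h), the CTCF-AID summed counts were 46 and 5, the ratio of 24 h to 0 h was 0.109 and that of CTCF-AID 0 h to wild type 4.60. At a minimum count of 3 the loops numbered 18 (CTCF, wild type), 15 and 10 (RAD21, wild type and ZNF143KO), 1 (ZNF143, wild type), 9 and 4 (CTCF-AID 0 h and 24 h), and the summed counts of the 3 ZNF143 lists were 4, 60 and 17. In the wild-type ZNF143 list only PCDHAC1 to HS5-1 was then left, so its share was 100% and that of PCDHA12 was 0%, and 1 of its loops was found at 0 h. Without PCDHA12 to HS5-1 the summed counts were 154 and 51 for CTCF and 150 and 65 for RAD21 (wild type and ZNF143KO), with ratios of 0.331 and 0.433. Divided by list totals the ratios were 0.3704 for CTCF, 0.548 for RAD21 and 3.38 for CTCF-AID 0 h to wild type. With CTCF-AID counts divided by 2, those lists held 9 and 4 loops with summed counts of 29 and 8, and the ratio of CTCF-AID 0 h to wild type was 2.90. As deposited, the ratios of summed counts were 0.296 (24 h to 0 h) and 9.80 (CTCF-AID 0 h to wild type); with unlisted loops given 1 count they were 0.519 and 2.88, and the latter was 3.10 over loops of the same sites in both lists. The cause was not tested beyond what each alternative removes. No paired analysis was possible because each group is 1 library, and no library could be left out. Most loops have 2 to 5 counts, where changes of several fold lie within counting error.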
